A study of Rattus norvegicus with 6 samples.

Results

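The 7 transcripts of the phagocytic and lysosomal program, Cd68, Gpnmb, Lgals3, Spp1, Apoe, Ctsb and Ctsd, were followed in injured rat spinal cord. They were taken from a table of 22526 genes by the Ensembl IDs of a chosen list, as ENSRNOG00000037563 (Cd68), ENSRNOG00000008816 (Gpnmb), ENSRNOG00000010645 (Lgals3), ENSRNOG00000043451 (Spp1), ENSRNOG00000018454 (Apoe), ENSRNOG00000010331 (Ctsb) and ENSRNOG00000020206 (Ctsd). All 7 were present and all 7 passed the filter on low values. The cords came from adult female Sprague-Dawley rats of 220 to 250 g, 2 weeks after spinal cord injury. In the DON group (n = 3) the lesion had received an implant of decellularized optic nerve, that is, nerve stripped of its cells. In the A-DON group (n = 3) the same kind of scaffold carried Apt19S. An aptamer such as this is a synthetic oligonucleotide selected for binding a chosen molecule or cell surface. Every rat thus carried both an injury and a scaffold, and no uninjured or unimplanted cord was analysed here. How and where the cord was injured, and which piece was taken, the sources used here do not say.

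After spinal cord injury, resident microglia and macrophages that enter from the blood engulf dying cells and the debris of broken myelin. The engulfed material is passed to lysosomes, acid vesicles in which proteases and other hydrolases digest it, and the lipid set free is exported on lipoprotein particles. Cd68 and Gpnmb encode glycoproteins of the lysosomal system and are widely used as marks of phagocytic macrophages. Lgals3 encodes galectin-3, a sugar-binding lectin that is also recruited to damaged lysosomes, and Spp1 encodes osteopontin, a secreted ligand of integrins and CD44. Apoe encodes apolipoprotein E, which carries exported lipid, and Ctsb and Ctsd encode the lysosomal proteases cathepsin B and cathepsin D. None of these genes is restricted to macrophages: astrocytes also make apolipoprotein E, and most cells contain cathepsins B and D. Markers of macrophages, microglia, glia and neurons were not analysed here, because no table used here pairs gene names with the IDs. The label of these 7 as macrophage genes was therefore not checked against such markers, and the source of their transcripts was not tested.

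The start regions of the genes are shown as context for the levels given below, and no link between them was tested. RefSeq windows (assembly GRCr8) from 250 bases before to 50 bases after a transcription start were found by symbol for 5 of the 7 genes, with 3 windows for Apoe and entries for neither Lgals3 nor Ctsb. The windows of the 3 genes with a match to a searched motif follow, 5′ to 3′ on the strand of the gene, with matches in capitals.
Cd68 (chr10:54882392-54882691, minus strand): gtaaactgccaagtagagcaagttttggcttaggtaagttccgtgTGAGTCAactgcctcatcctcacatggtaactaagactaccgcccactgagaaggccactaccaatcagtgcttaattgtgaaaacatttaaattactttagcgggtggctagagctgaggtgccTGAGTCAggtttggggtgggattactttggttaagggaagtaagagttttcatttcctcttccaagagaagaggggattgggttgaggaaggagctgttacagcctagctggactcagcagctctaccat
Gpnmb (chr4:79340878-79341177, plus strand): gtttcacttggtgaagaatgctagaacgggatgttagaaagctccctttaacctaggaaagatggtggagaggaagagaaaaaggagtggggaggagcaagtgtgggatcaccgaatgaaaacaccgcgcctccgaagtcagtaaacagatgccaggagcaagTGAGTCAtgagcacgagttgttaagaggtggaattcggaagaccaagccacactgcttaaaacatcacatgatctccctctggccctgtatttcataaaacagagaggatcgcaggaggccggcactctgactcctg
Ctsd (chr1:206968772-206969071, minus strand): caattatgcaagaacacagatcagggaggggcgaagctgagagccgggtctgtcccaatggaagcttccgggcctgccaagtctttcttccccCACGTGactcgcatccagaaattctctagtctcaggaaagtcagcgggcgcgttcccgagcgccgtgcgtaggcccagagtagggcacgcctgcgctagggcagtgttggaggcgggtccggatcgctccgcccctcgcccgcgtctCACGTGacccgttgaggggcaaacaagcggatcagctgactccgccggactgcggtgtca

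In the Ctsd window the capitals mark 2 copies of CACGTG, the E-box core that lies inside the CLEAR element bound by the lysosomal regulator TFEB. They begin 157 and 10 bases before the start. The longer CLEAR form, the same core with GT before it and AC after it, was in none of the 7 windows. In the Cd68 window the capitals mark 2 copies of TGANTCA, the AP-1 motif, which begin 205 and 80 bases before the start. The Gpnmb window held 1 copy of TGANTCA, beginning 87 bases before the start. The Spp1 window and the 3 Apoe windows, of which the second and the third overlap, matched no searched motif, and GAGGAAGT, a PU.1 motif, was in none of the 7 windows. Both strands were searched. Of all 33469 RefSeq windows of 300 bases, 6.42% held CACGTG, 0.233% held the longer CLEAR form, 7.33% held TGANTCA and 2.42% held GAGGAAGT. The core lies inside the longer form, so their shares overlap. A match describes letters only, and binding was not measured.

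Expression is given as normalized counts, that is, reads of a gene divided by a size factor per library. The libraries held 24961512 to 31189687 recovered reads. The lowest count of any of the 7 genes in any library was 572 reads, for Cd68 in A-DON replicate 1, where counting alone gives a relative error of 4.18%. Counting error was thus small beside the differences between rats given below. A-DON replicate 2 was nearer to DON than the other A-DON libraries in all 7 genes, so results are given with and without it. Because of that position, leaving it out can only move these fold changes away from 0. The values without it describe the remaining libraries and add no support to a call.

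The comparison of A-DON with DON sets cords whose scaffold carried the aptamer beside cords whose scaffold did not. Whether the aptamer caused a difference between the groups was not tested apart from other differences between the rats. All 7 genes had a lower mean in A-DON, with log2 fold changes from -3.51 to -2.23. Lgals3, Apoe, Ctsb and Ctsd fell past the threshold (limma, Benjamini-Hochberg adjusted p under 0.05 over 19515 genes). Cd68, Gpnmb and Spp1 did not pass it, although Gpnmb and Cd68 had the lowest log2 fold changes of the 7. The 4 of 7 called lower stand beside 16.6% of all tested genes called lower, and 35.5% called in either direction. The median log2 fold change was -2.67 over the 7 genes and -0.023 over all tested genes. Without A-DON replicate 2, all 7 passed, beside 24.9% of all genes called lower. Without any other single library, in either group, 0 of 7 passed (limma), beside 0.00512% to 6.65% of all genes called lower. In those fits 4 to 7 of the 7 genes had an unadjusted limma p under 0.05. So did 6838 to 8740 of all 19515 tested genes, in either direction. In bulk tissue, fewer cells of a type and less RNA per cell cannot be told apart.

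**Figure D1:**
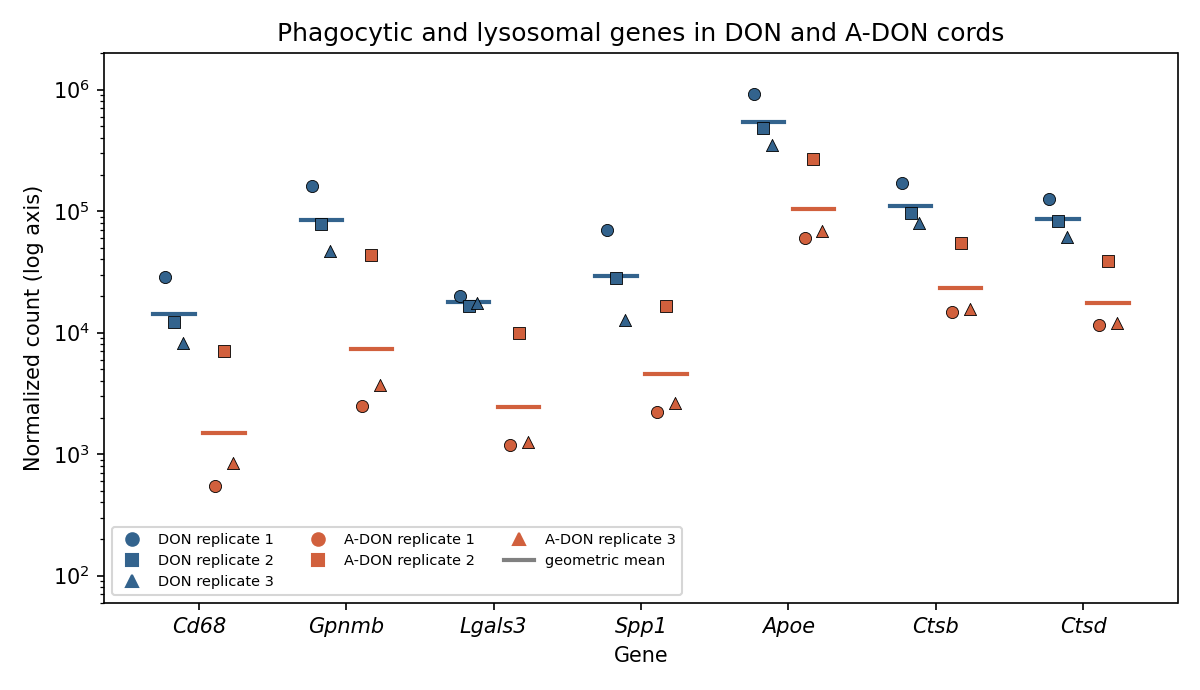
Normalized counts on a log axis for each of the 7 genes, with 1 point per rat (shape gives the replicate number, blue DON, orange A-DON) and a bar at the geometric mean of each group. A-DON replicate 2 lies above the other A-DON replicates in every gene, and only in Spp1 do the groups overlap.

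Cd68, the classical histological mark of phagocytic macrophages, had 28571, 12264 and 8142 normalized counts in DON replicates 1 to 3. In A-DON replicates 1 to 3 it had 551, 7042 and 849. The groups did not overlap, but A-DON replicate 2 lay close under DON replicate 3, whose level was 1.16 times as high. The mean was 16330 ± 10800 in DON and 2814 ± 3664 in A-DON (SD, n = 3 each). The log2 fold change was -3.25 (SE 1.02, 95% interval -5.75 to -0.75), with a limma adjusted p of 0.0519, just short of the threshold. Without A-DON replicate 2 the log2 fold change was -4.37 (SE 0.556), or 20.7-fold lower, with a limma adjusted p of 0.00338.

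Gpnmb, the other lysosomal glycoprotein, had the lowest log2 fold change of the 7. Its normalized counts were 159459, 77789 and 47307 in DON replicates 1 to 3. They were 2470, 43143 and 3692 in A-DON replicates 1 to 3. As with Cd68, A-DON replicates 1 and 3 were far below every DON library, while A-DON replicate 2 nearly reached DON replicate 3, which was 1.10 times as high. A-DON replicate 2 exceeded A-DON replicate 1 by 17.5-fold, a wider gap than the 11.4-fold difference between the group means on the log scale. The log2 fold change was -3.51 (SE 1.13, 95% interval -6.28 to -0.75; limma adjusted p = 0.055). Without that library the difference was 27.7-fold (log2 fold change -4.79, SE 0.532, limma adjusted p = 0.00241).

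Lgals3, encoding galectin-3, was the most even of the 7 genes within DON, with 19940, 16558 and 17579 normalized counts in replicates 1 to 3. A-DON replicates 1 to 3 had 1199, 9890 and 1259. The highest DON library was only 1.20 times the lowest. In the other 6 genes that ratio ran from 2.04 (Ctsd) to 5.47 (Spp1). The mean of Lgals3 was 18030 ± 1734 in DON and fell to 4116 ± 5001 in A-DON (SD, n = 3 each). Its log2 fold change was -2.87 (SE 0.823, 95% interval -4.88 to -0.86; limma adjusted p = 0.0411), and the lowest DON library was 1.67 times A-DON replicate 2. Without A-DON replicate 2 it was -3.87, with an SE of 0.121 and a limma adjusted p of 0.000592.

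Spp1, encoding osteopontin, was the 1 gene whose groups overlapped. DON replicates 1 to 3 had 69537, 28305 and 12701 normalized counts, the widest spread within DON among the 7. In A-DON replicates 1 to 3 the counts were 2216, 16668 and 2647, so that A-DON replicate 2 lay above DON replicate 3. The log2 fold change of -2.67 (SE 0.956, 95% interval -5.00 to -0.33) gave a limma adjusted p of 0.0723, the highest of the 7. Without A-DON replicate 2 the log2 fold change was -3.59 (SE 0.701, limma adjusted p = 0.0115).

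Apoe, the lipid carrier, had 916315, 479392 and 351637 normalized counts in DON replicates 1 to 3. In A-DON replicates 1 to 3 it had 60133, 268022 and 68611, each below every DON library. Apoe fell from 582400 ± 296100 to 132300 ± 117700 (SD, n = 3 each). The log2 fold change was -2.38 (SE 0.665, 95% interval -4.00 to -0.75; limma adjusted p = 0.0388). It was -3.06 without A-DON replicate 2 (limma adjusted p = 0.00419) and -1.62 after quantile normalization, where the limma adjusted p rose to 0.102.

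The 2 cathepsins, which digest proteins inside the lysosome, had the smallest changes and the smallest standard errors. Ctsb had 169324, 96303 and 79830 normalized counts in DON replicates 1 to 3 and 14858, 54738 and 15666 in A-DON replicates 1 to 3. Ctsd had 125059, 82291 and 61173 in DON and 11645, 38891 and 11898 in A-DON, in the same replicate order. In both genes the highest A-DON library was under the lowest DON library, and A-DON replicates 1 and 3 were nearly equal. Ctsb fell by 2.23 on the log2 scale (SE 0.577, 95% interval -3.63 to -0.82; limma adjusted p = 0.0323). Ctsd fell by 2.29 (SE 0.539, 95% interval -3.60 to -0.97; limma adjusted p = 0.0259), the lowest adjusted p of the 7. With A-DON replicate 2 left out, Ctsb had a log2 fold change of -2.84 and Ctsd of -2.86, with limma adjusted p of 0.00287 and 0.00228.

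**Figure D2:**
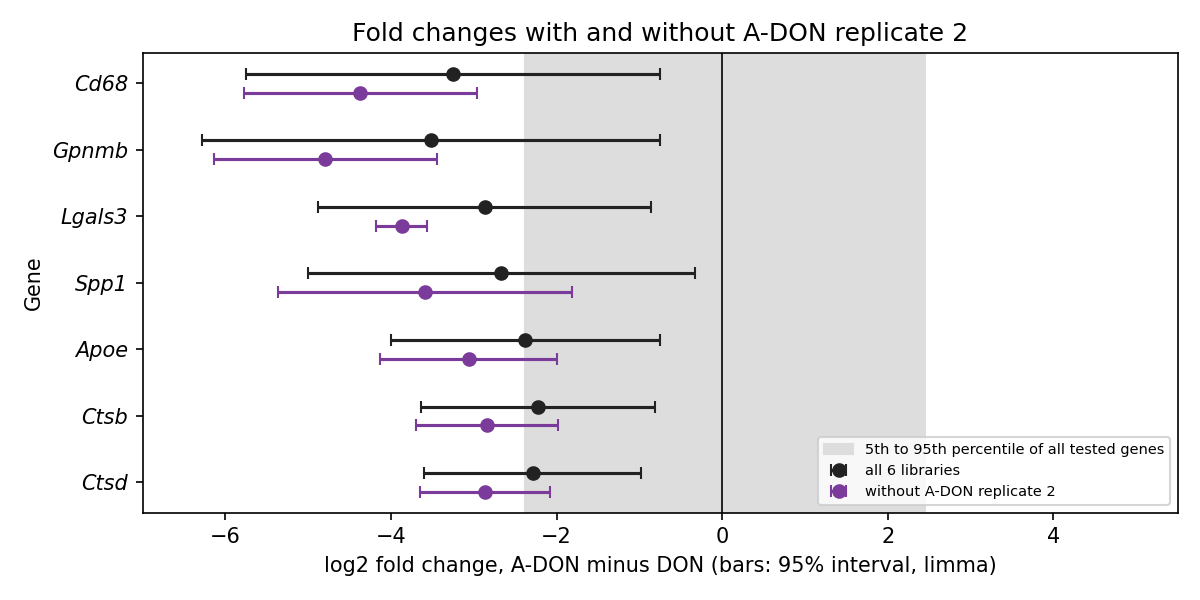
Log2 fold change of A-DON minus DON with its 95% limma interval for each gene, from all 6 libraries (black) and without A-DON replicate 2 (purple); the grey band spans the 5th to the 95th percentile of all tested genes, -2.38 to 2.45. Leaving out that library moved each of the 7 estimates further from 0 and narrowed each interval.

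Groups did not overlap in 6 of the 7 genes, all lower in A-DON, beside 27.9% of all tested genes with all A-DON values under all DON values. With 3 rats against 3, the exact two-sided permutation test cannot give less than 0.1, and it gave 0.1 for these 6 genes and 0.2 for Spp1. Among all tested genes, 0.856% had a lower log2 fold change than Gpnmb, 1.37% than Cd68, 2.48% than Lgals3 and 3.26% than Spp1. For Apoe, Ctsd and Ctsb the share was 5.07%, 5.71% and 6.17%. A log2 fold change of -2 or lower was found in all 7 genes, beside 8.1% of all tested genes.

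The calls depended on single rats. Leaving out A-DON replicate 1, A-DON replicate 3 or any DON replicate left 0 of the 7 past the threshold (limma), with adjusted p from 0.0604 to 0.21. At an unadjusted limma p under 0.05, 4 of 7 passed without A-DON replicate 1, A-DON replicate 3 or DON replicate 1. The number was 6 without DON replicate 2 and 7 without DON replicate 3. At that unadjusted threshold, in either direction, 6838 of all 19515 tested genes passed without A-DON replicate 1. For all tested genes the number was 6851 without A-DON replicate 3 and 8463 without DON replicate 1. It was 8740 without DON replicate 2 and 7764 without DON replicate 3. Past the adjusted threshold, fewer genes of any kind were called lower in those fits. Of all tested genes the share was 0.0154% without A-DON replicate 1 and 0.00512% without A-DON replicate 3. It was 6.65%, 5.66% and 1.13% without DON replicates 1, 2 and 3. The log2 fold changes themselves stayed between -3.93 and -1.90 in these 5 fits.

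Reads of the 7 genes together made up a visible part of the libraries. They were 5.01%, 2.73% and 1.96% of all recovered reads in DON replicates 1 to 3, with exact Clopper-Pearson 95% intervals of 4.998 to 5.013%, 2.727 to 2.739% and 1.959 to 1.969%. In A-DON replicates 1 to 3 they were 0.334%, 1.63% and 0.374%, with intervals of 0.3323 to 0.3365%, 1.623 to 1.633% and 0.372 to 0.3766%. Every DON library thus gave a larger share than every A-DON library. The mean share was 3.23 ± 1.58% in DON and 0.779 ± 0.736% in A-DON (SD, n = 3 each). The intervals cover counting error only, and the labels' protocols mention no molecular identifiers. Apoe gave 60.5% to 65.6% of the reads of the 7 genes in the 6 libraries, a share of reads that is not corrected for transcript length.

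**Figure D3:**
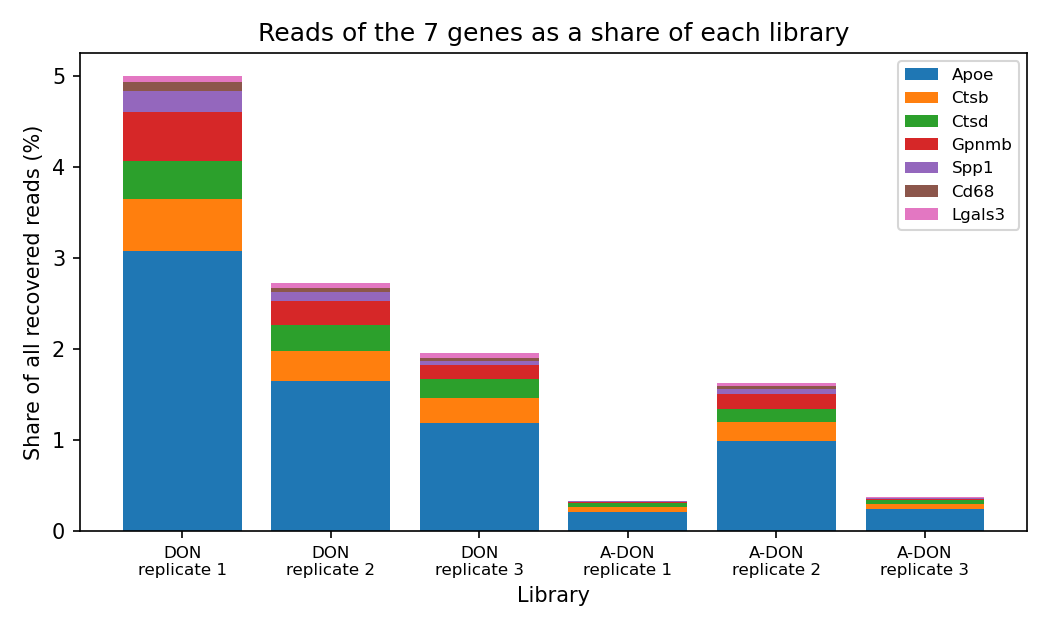
Reads of the 7 genes, stacked by gene, as a percentage of all recovered reads in each of the 6 libraries. The stack is highest in DON replicate 1 (5.01%) and lowest in A-DON replicate 1 (0.334%), and that of A-DON replicate 2 (1.63%) is close to DON replicate 3 (1.96%).

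Rats of a group differed in the same sense in nearly all of the genes. DON replicate 1 was the highest DON library in all 7, and DON replicate 3 the lowest in 6, the exception being Lgals3. Within A-DON, replicate 2 was the highest and replicate 1 the lowest in all 7. A-DON replicate 2 exceeded A-DON replicate 1 by 17.5-fold in Gpnmb, 12.8-fold in Cd68, 8.25-fold in Lgals3 and 7.52-fold in Spp1. In the same gene order, the group means on the log scale differed by less, 11.4-, 9.52-, 7.3- and 6.35-fold. The ratio of A-DON replicate 2 to A-DON replicate 1 was smaller in Apoe (4.46), Ctsb (3.68) and Ctsd (3.34). There it was under the group differences of 5.19-, 4.67- and 4.89-fold. A-DON replicate 3 was 1.02 (Ctsd) to 1.54 (Cd68) times A-DON replicate 1. On a linear scale where 0 is the DON mean and 1 the mean of A-DON replicates 1 and 3, A-DON replicate 2 stood between 0.484 (Lgals3) and 0.651 (Ctsd) in the 7 genes. On the log2 scale it stood between 0.200 (Gpnmb) and 0.398 (Ctsd), nearer to DON. Marker levels of other cells were not analysed here, and the part of tissue content in these differences was not tested.

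The ratios between the genes within a library were compared next. They do not depend on a scale factor per library, but quantile normalization changes them. It turned the difference in log2 fold change of Apoe minus Ctsb from -0.15 to 0.42, and that of Apoe minus Ctsd from -0.09 to 0.34. For Ctsb minus Ctsd it went from 0.06 to -0.08. In the deposited values, Apoe, Ctsb and Ctsd kept nearly fixed ratios in all 6 libraries. The log2 ratio of Ctsb to Ctsd ran only from 0.23 to 0.49, and that of Apoe to Ctsb from 2.02 to 2.44. Cd68 and Gpnmb also ran close to each other, with a log2 ratio of Cd68 to Gpnmb from -2.67 to -2.12. The ratio of Gpnmb to Ctsb moved more. Its log2 value was -0.09, -0.31 and -0.75 in DON replicates 1 to 3 and -2.59, -0.34 and -2.09 in A-DON replicates 1 to 3. A-DON replicate 2 thus lay among the DON libraries in this ratio, while A-DON replicates 1 and 3 lay below all of them.

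The same arrangement held for Cd68 against Ctsd. Its log2 ratio was -2.13, -2.75 and -2.91 in DON replicates 1 to 3, and -4.40, -2.47 and -3.81 in A-DON replicates 1 to 3. It also held, with smaller shifts, for Lgals3 against Ctsd. That log2 ratio was -2.649, -2.313 and -1.799 in DON replicates 1 to 3, and -3.279, -1.975 and -3.24 in A-DON replicates 1 to 3. It did not hold for Spp1 against Ctsd, with log2 ratios of -0.85, -1.54 and -2.27 in DON replicates 1 to 3. In A-DON replicates 1 to 3 the Spp1 ratio was -2.39, -1.22 and -2.17, so A-DON replicate 3 lay above DON replicate 3. Over all 21 pairs of the 7 genes, the A-DON minus DON difference of the log2 ratio ran from -1.29 (Gpnmb to Ctsb) to 0.65 (Lgals3 to Gpnmb). In all 21 pairs the groups overlapped. The lowest exact two-sided permutation p was 0.2, or 0.485 after Benjamini-Hochberg adjustment over the 21 pairs. With 3 rats against 3 that test cannot go below 0.1, so no pair could have passed, and whether the pairs changed unequally was not settled. Without A-DON replicate 2 the difference for Gpnmb to Ctsb was -1.95 and for Ctsb to Ctsd 0.02, given as values with no test.

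**Figure D4:**
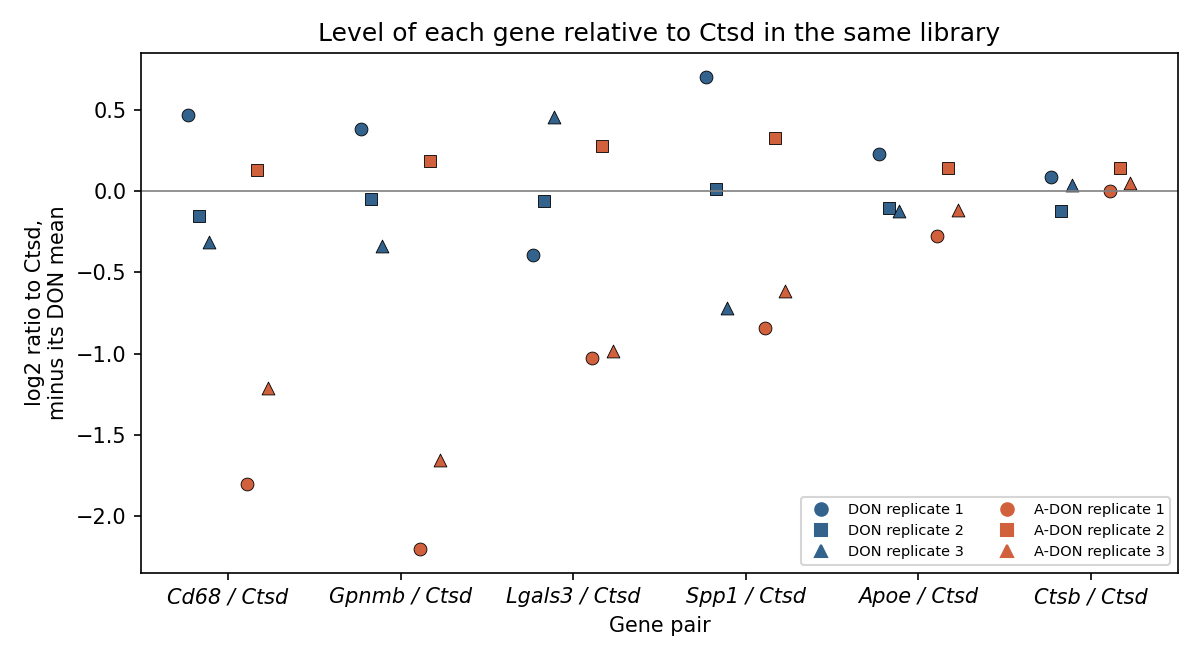
Log2 ratio of each of the other 6 genes to Ctsd in the same library, minus the DON mean of that ratio, with 1 point per rat (shape gives the replicate number, blue DON, orange A-DON). Ctsb and Apoe stay near 0 in all libraries. Cd68, Gpnmb and, to a lesser degree, Lgals3 are low in A-DON replicates 1 and 3 and not in A-DON replicate 2. Spp1 does not separate in this way, as A-DON replicate 3 lies above DON replicate 3.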

How the data were processed

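One stranded mRNA library per rat (6 rats, spinal cord) was sequenced on an Illumina NovaSeq machine, per the labels. For the reads, the submitters' processing notes list the programs STAR 2.5.3a, StringTie 1.3.1c and FastQC 0.11.2 with genome build rn6, and no roles. Which program counted reads, with which strand setting and annotation, is not stated there. The authors deposited log2 values, up to 19.8. Once the log2 and an added 1 were undone, 100% of values came out as whole multiples of 1 step per library (tolerance 0.05 reads, largest deviation 0.0022). The deposited log2 values were therefore taken as log2(read count / size factor + 1), with 1 step taken as 1 read. Whole multiples do not show how the counts were made, so the recovered reads and counting errors rest on that reading.

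The test was limma 3.58.1 (R 4.3.3, statmod 1.5.0; group as the only term, trend and robust options on) on those log2 values. It covered the 19515 genes reaching a normalized count of 1 in 3 or more libraries, with Benjamini-Hochberg adjustment over all of them and a threshold of 0.05. The code of the fit was checked on simulated counts, which says nothing of error rates in these data. Adding 1 before the log2 hardly touches genes at these levels. Titles gave each rat's group and number, and the design describes different rats per group. The 7 genes and all lists were chosen with earlier results of these data known. Symbols come from the list that defined the 7 genes, as the deposited table holds IDs only. The RefSeq table (47357 genes) shares no ID with it, so 7 pathway lists, 12 marker lists and the rule for genes most like a member gave no values. All 7 genes are named. Alternatives were other scalings (median-of-ratios, quantile, equal totals), other filters (none, a mean of at least 5), limma without both options, a pseudocount of 0.1, voom on recovered reads, sample weights, a block for the replicate number, and fits lacking 1 library each. Equal totals counted without the 7 genes were added after seeing the data.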

Additional observations from a re-analysis of the deposited data

How the results depend on the processing

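All 7 genes kept a negative log2 fold change in all 17 alternatives, but in many of these the sign could not change. With median-of-ratios scaling, other filters, limma without both options or a replicate block, the fold changes equalled those of the main fit. Leaving out 1 library could not reverse the sign in any gene but Spp1, because the groups of the others did not overlap. The count of 4 genes past the threshold became 2 without trend and robust moderation, beside 13.1% of all tested genes called lower. In that fit the limma adjusted p was 0.0551 for Lgals3 and 0.0512 for Apoe. The count became 7 with sample weights, where 12414 of 19515 genes were called and 32.1% were called lower. The weights gave A-DON replicate 2 0.242 and A-DON replicate 3 6.99. Leaving out 1 library gave 0 to 7 of the 7 genes and 12 to 9286 of all genes, against 6930 with all libraries; such fits have fewer rats. With a replicate block, 0 of the 7 and 0 of all genes passed (limma), while all 7 and 7601 of all genes had an unadjusted p under 0.05. That fit has fewer residual degrees of freedom. Across genes, the deviations of like-numbered rats from their group means had r of -0.17, -0.24 and -0.083. No A-DON rat correlated best with its own number. Deviations from a group mean are tied to one another, so this check cannot show whether the rats were paired. The main fit did not use the numbers for pairing, and the design describes different rats per group. Voom on recovered reads called 5 of the 7, adding Cd68 (limma adjusted p = 0.0489), beside 18.5% of all tested genes called lower. Quantile normalization called 4, with Cd68 (limma adjusted p = 0.0489) in and Apoe out, beside 17.7% called lower. With the main fit that share was 16.6%. Across the 11 alternatives other than leaving out a library, adjusted p ran from 0.0014 to 0.0997 for Cd68, from 0.00108 to 0.102 for Apoe and from 0.000591 to 0.0831 for Lgals3. Of all called genes 53.4% were higher in A-DON, and 64.4% at equal library totals. The causes of these shifts were not tested. No alternative could be run for the pathway and marker lists. Depth did not limit the 7 genes, each with at least 572 reads in every library.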
